A study of Mus musculus with 40 samples.

Results

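The expression of 41 genes of DNA replication and S phase was examined in the jejunum of mice given doxorubicin, a topoisomerase II poison that breaks DNA. The genes were taken as a list by function: origin licensing factors, subunits of the replicative helicase, polymerases and fork proteins, enzymes of deoxynucleotide supply, chromatin assembly factors, and the E2F and cyclin E genes of S phase entry. The list was chosen with earlier results of these data known. A gene was measured by the array's transcript cluster that carries its symbol alone, and 40 of the 41 had exactly 1 such cluster, out of 36155 genes so measured. Mcm7, a helicase subunit, lies on a cluster that also carries Mir93 and Mir25, so it is left out of the counts.

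Female mice of 10 to 12 weeks on a C57BL/6N background were studied, either Sftpd-/- (KO) or their Sftpd+/+ (WT) littermates. Sftpd encodes surfactant protein D, a lectin of innate defence. Each mouse received 1 intraperitoneal dose of doxorubicin at 20 mg/kg (Dox) or isotonic saline (NaCl), and the middle segment of the small intestine was taken on day 3 or day 7. The 8 groups are named KO-Dox3, KO-Dox7, WT-Dox3 and WT-Dox7 for doxorubicin and KO-NaCl3, KO-NaCl7, WT-NaCl3 and WT-NaCl7 for saline, with 5 mice and 5 arrays each. All groups were injected, and an effect of doxorubicin is against saline on the same day unless stated.

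Cells license origins of replication in G1 by loading the MCM2-7 helicase with the origin recognition complex, Cdc6 and Cdt1. Cyclin E with Cdk2 and the E2F transcription factors open S phase, and E2F factors bind many promoters of replication genes. In the intestine, nearly all cells in S phase lie in the crypts, where progenitors divide to replace the epithelium of the villi.

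The promoters of 35 of the 41 genes were found in RefSeq (GRCm38.p6), each as 250 bases before and 50 bases after a start site, with 40 promoters in all. Mcm4, Gins1, Gins2, Pole, Ccne2 and Gmnn had no entry. An E2F-type word, TTTCCCGC, TTTCGCGC, TTTGCCGC or TTTGGCGC on either strand, was present in 13 of the 40 promoters (32.5%), belonging to 13 genes, against 744 of 32851 promoters in the table (2.26%). The word CCAAT on either strand was present in 21 of the 40 (52.5%) and in 37.4% of all promoters, and TATAAA in 2 of the 40 (5.0%) and 13.6% of all. A match describes the letters only, and a promoter without the word says nothing about binding of a factor. Shown are the last 225 bases for 4 genes that hold the word and rose clearly in KO mice, for Rrm2, which rose furthest and holds none of the 4 words, and for Slbp, which did not pass the test and holds none. Capitals mark the E2F-type words, and overlapping words are joined:
Mcm3: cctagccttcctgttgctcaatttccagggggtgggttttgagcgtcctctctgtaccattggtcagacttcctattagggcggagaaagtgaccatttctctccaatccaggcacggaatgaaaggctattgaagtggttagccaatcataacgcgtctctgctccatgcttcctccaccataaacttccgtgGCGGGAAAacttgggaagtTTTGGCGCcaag
Mcm5: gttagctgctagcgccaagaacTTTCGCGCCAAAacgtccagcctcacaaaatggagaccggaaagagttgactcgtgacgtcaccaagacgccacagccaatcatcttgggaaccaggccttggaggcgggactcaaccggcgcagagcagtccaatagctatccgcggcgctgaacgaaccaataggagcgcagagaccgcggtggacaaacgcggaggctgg
Mcm6: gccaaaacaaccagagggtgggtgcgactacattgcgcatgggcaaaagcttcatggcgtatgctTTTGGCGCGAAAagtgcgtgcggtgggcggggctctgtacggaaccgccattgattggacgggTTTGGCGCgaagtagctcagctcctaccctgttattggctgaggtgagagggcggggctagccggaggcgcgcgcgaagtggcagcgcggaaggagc
Hells: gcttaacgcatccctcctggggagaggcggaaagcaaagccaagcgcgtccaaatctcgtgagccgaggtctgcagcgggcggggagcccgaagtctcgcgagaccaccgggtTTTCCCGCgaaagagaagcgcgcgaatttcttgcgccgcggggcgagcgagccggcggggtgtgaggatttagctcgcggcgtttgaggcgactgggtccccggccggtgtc
Rrm2: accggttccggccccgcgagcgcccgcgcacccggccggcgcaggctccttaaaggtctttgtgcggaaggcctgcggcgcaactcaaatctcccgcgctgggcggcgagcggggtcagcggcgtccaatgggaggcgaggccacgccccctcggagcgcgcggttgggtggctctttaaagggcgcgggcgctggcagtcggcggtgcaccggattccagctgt
Slbp: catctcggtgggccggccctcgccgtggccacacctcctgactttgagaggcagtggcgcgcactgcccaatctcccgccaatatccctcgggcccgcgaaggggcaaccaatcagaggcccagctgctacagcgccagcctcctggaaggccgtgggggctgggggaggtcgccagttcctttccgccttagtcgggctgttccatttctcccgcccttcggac

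The windows lie on GRCm38 at chr1:20820263-20820487 (Mcm3, minus strand), chr8:75109334-75109558 (Mcm5, plus strand), chr1:128359656-128359880 (Mcm6, minus strand), chr19:38930815-38931039 (Hells, plus strand), chr12:24708079-24708303 (Rrm2, plus strand) and chr5:33652525-33652749 (Slbp, minus strand). In Mcm6 a pair of overlapping words begins 110 and 106 bases before the start site and another word 47 bases before it. In Mcm5 the pair begins 153 and 149 bases before the start site, in Hells a word begins 62 bases before it, and in Mcm3 the words begin 19 and 38 bases after it. Of the 30 matched genes that rose in KO mice at day 3, 12 hold a word, and of the 4 that did not pass the test, 0 hold one. These 4 are too few for a comparison, and Ccne2 and Gmnn, which also did not pass, had no entry. Mcm2, Pcna, Rrm1 and Ccne1 rose in KO mice and hold no word.

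The deposited values are log2 signals, so a difference of 1 is a 2-fold change in linear signal, and no level is set against that of another gene. The mean over the 40 arrays lay between 4.71 (E2f1) and 10.45 (Pcna). The array's 23 probe sets for background had a mean of 3.45 and reached 6.99, and 18 of the 40 genes had a mean under that highest value, where a change may be understated. Sftpd itself was measured at 3.83 to 4.24 in the 20 WT mice and at 3.85 to 4.31 in the 20 KO mice, so it is at background in both and does not check the genotype labels. Enterocyte markers were high in all arrays (summed signal of 9 of 9 markers, 21.62 to 22.08 on the log2 scale), while pancreatic acinar (6.02 to 6.71 over 3 of 4 markers) and erythroid markers (4.80 to 5.33 over 2 of 4) were near background. Mouse 254 of KO-NaCl3 stood apart in Paneth cell markers (3 of 4 measured), with a summed signal of 16.25 against 18.71 to 20.55 in the other 39 mice. A gene passed where its limma p-value, after Benjamini-Hochberg adjustment across 65956 clusters, was under 0.05, and changes are given as log2 change ± SE.

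At day 3, replication genes rose after doxorubicin in each of the 6 role groups in KO mice and in a few genes in WT mice. The difference between the genotypes in this effect, given below, passed for 0 of the 40 genes (lowest adjusted p = 0.75, limma). The counts of the 2 genotypes are therefore not read as a difference between them. In KO mice, 34 of the 40 rose and 6 did not pass, with 0 lower past the threshold (5.66% of all clusters rose and 3.68% fell), with a median log2 change of 0.76 against -0.04 over all clusters. Of these 34, 15 had a mean under the highest background value. Orc1, Rfc3, Rpa2, Fen1, Gins2 and E2f1 lay under it in every mouse. Among WT mice 4 genes rose, 36 did not pass and 0 fell (2.60% of all clusters rose and 2.13% fell), with a median of 0.20 against 0.00. The 4 genes were Rrm2, Hells, Mcm4 and Ccne1, and all 4 also rose in KO mice. The WT count fell to 0 in an analysis of variance of the compared groups alone, without limma's moderation of the spread. It fell to 1 (Rrm2) with a moderated spread taken from those groups alone. With each array centred on its median the count was 2 (Hells and Rrm2), and 1292 of all 65956 clusters rose. The same 2 genes passed without mouse 144, mouse 192 or saline mouse 190. Shares of all clusters in the other settings named here are not given. Averaged over the genotypes, 30 of the 40 rose (7.39% of all clusters rose) and 0 fell. Every KO-Dox3 mouse lay above every KO-NaCl3 mouse in 31 of the 40 genes (4.90% of all clusters), and every WT-Dox3 mouse above every WT-NaCl3 mouse in 0 (2.15%). In whole jejunum a larger share of cells in S phase and more RNA per cell cannot be told apart.

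**Figure D1:**
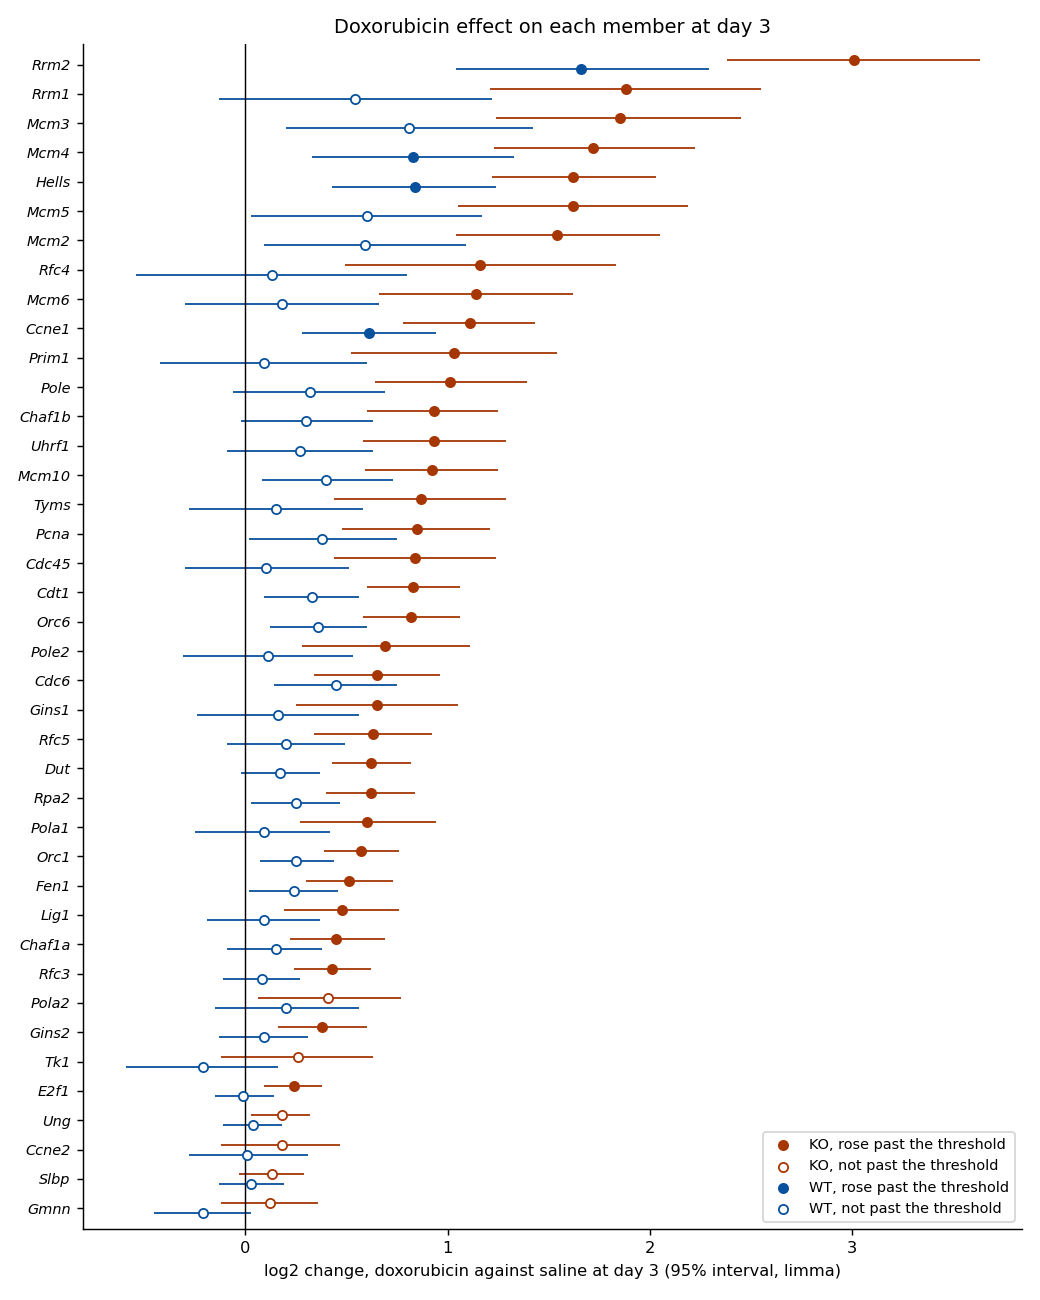
Log2 change after doxorubicin at day 3 for each of the 40 genes (x axis; bars are 95% intervals from limma), in KO (brown) and WT mice (blue), ordered by the KO change. Filled points passed the threshold: 34 in KO and 4 in WT, and the KO point lies to the right of the WT point in all 40 rows. In the test of the difference between the KO and WT changes, 0 genes passed.

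Enzymes of deoxynucleotide supply held the largest rise. Rrm2, the small subunit of ribonucleotide reductase that limits the making of deoxynucleotides, was at 6.62, 6.85, 7.47, 7.48 and 7.81 in KO-NaCl3 and at 9.62, 10.13, 10.40, 10.52 and 10.59 in KO-Dox3. Among WT mice the values were 7.22, 7.58, 7.98, 8.21 and 8.74 after saline and 8.57, 9.34, 9.80, 10.01 and 10.33 after doxorubicin. The KO groups were separate, and the WT groups overlapped only through mouse 244 of WT-Dox3 (8.57) and mouse 44 of WT-NaCl3 (8.74). The change was 3.01 ± 0.31 in KO mice (8.03-fold, adjusted p = 1.51e-08, limma) and 1.66 ± 0.31 in WT mice (3.17-fold, adjusted p = 6.55e-04).

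Rrm1, the large subunit of the same enzyme, was at 8.44, 8.51, 9.64, 9.71 and 9.91 in KO-NaCl3 and at 10.82, 11.00, 11.22, 11.24 and 11.33 in KO-Dox3, with no overlap. WT mice had 9.22, 9.88, 10.35, 10.58 and 10.65 after saline and 9.42, 10.61, 10.78, 10.98 and 11.60 after doxorubicin. The lowest values were those of mice 254 and 182 in KO-NaCl3, and mice 244 and 232 of WT-Dox3 lay within the range of the WT saline mice. Rrm1 rose by 1.88 ± 0.33 in KO mice (adjusted p = 1.11e-04), while its change in WT mice was 0.54 ± 0.33 (adjusted p = 0.484). Tyms, which makes thymidylate, and Dut, which removes dUTP, rose in KO mice (0.87 ± 0.21 and 0.62 ± 0.10) and not past the threshold in WT mice (0.15 and 0.17). Tk1, the salvage thymidine kinase (0.26 in KO, -0.21 in WT), and Ung, which excises uracil from DNA (0.18 and 0.04), did not pass in either genotype. Ung lay under the highest background value in every mouse.

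All 9 measured helicase genes rose in KO mice, by 0.38 to 1.85, and 1 of them, Mcm4, rose in WT mice. Mcm2 was at 6.75, 6.92, 7.50, 7.53 and 7.67 in KO-NaCl3 and at 8.48, 8.52, 8.88, 9.08 and 9.13 in KO-Dox3. In the WT groups the values were 7.18, 7.43, 8.08, 8.16 and 8.24 after saline and 7.67, 8.27, 8.41, 8.58 and 9.12 after doxorubicin. KO mice did not overlap between treatments, and 4 of the 5 WT-Dox3 mice lay above every WT-NaCl3 mouse, mouse 244 being the exception. Mcm2 rose by 1.54 ± 0.25 in KO mice (adjusted p = 2.83e-05), and its WT change was 0.59 ± 0.25 (adjusted p = 0.214).

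Mcm3 was at 6.78, 6.98, 7.84, 7.95 and 8.35 in KO-NaCl3 and at 9.02, 9.39, 9.53, 9.58 and 9.61 in KO-Dox3, with no overlap. WT mice gave values of 7.50, 7.84, 8.49, 8.66 and 8.69 after saline and 8.27, 8.97, 9.14, 9.21 and 9.64 after doxorubicin. Again only mouse 244 of WT-Dox3 fell within the saline range. Mcm3 rose by 1.85 ± 0.30 in KO mice (adjusted p = 3.18e-05), with a WT change of 0.81 ± 0.30 (adjusted p = 0.134). Its promoter carries a pair of the E2F-type words shown above.

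Mcm4 was at 7.25, 7.59, 8.26, 8.33 and 8.55 in KO-NaCl3 and at 9.51, 9.64, 9.77, 9.77 and 9.91 in KO-Dox3. The WT values were 8.07, 8.29, 8.76, 8.89 and 8.93 after saline and 8.79, 9.38, 9.46, 9.60 and 9.85 after doxorubicin. No KO mouse overlapped between treatments, and in WT mice mouse 244 lay below 2 of the saline mice. Mcm4 rose by 1.72 ± 0.25 in KO (adjusted p = 4.35e-06) and by 0.83 ± 0.25 in WT mice (adjusted p = 0.0415). The other subunits Mcm5 (1.62) and Mcm6 (1.14), and Mcm10, Cdc45, Gins1 and Gins2, which join the helicase when origins fire (0.92, 0.84, 0.65 and 0.38), rose in KO mice. The WT changes of these 6 genes lay between 0.09 and 0.60 and did not pass.

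**Figure D2:**
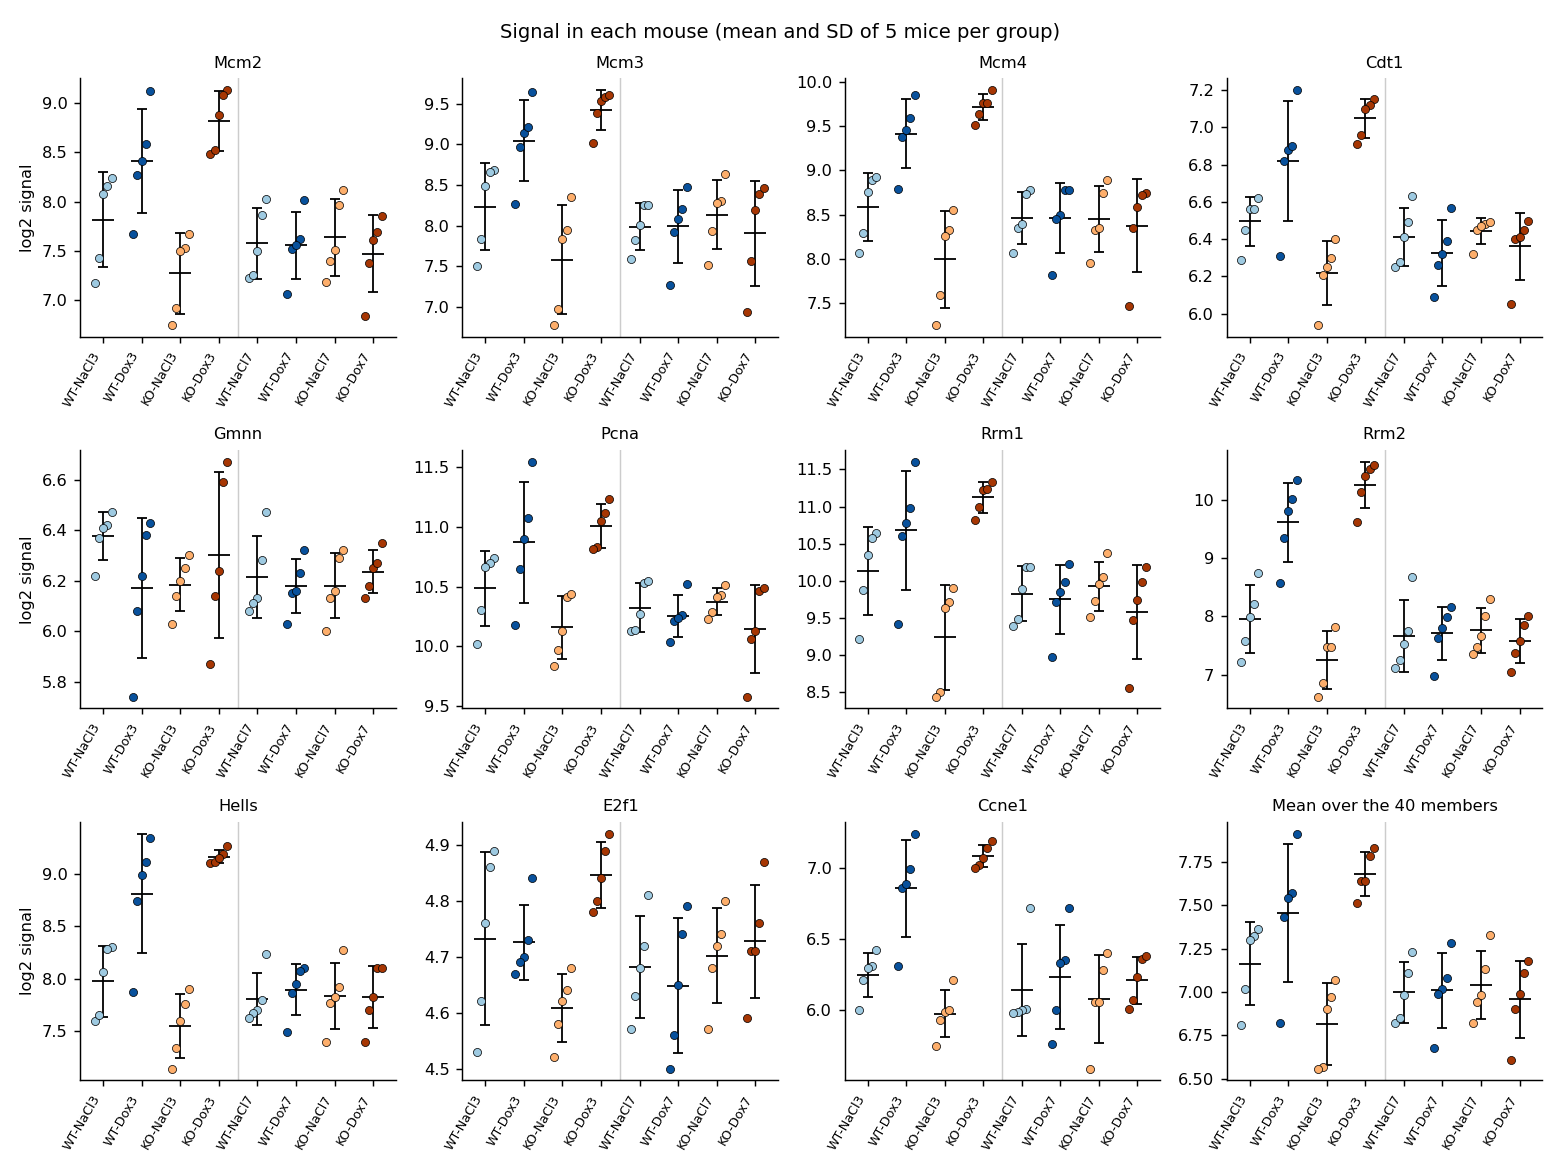
Log2 signal in each mouse (points; bars are mean and SD, n = 5 per group) for 11 genes and for the mean over the 40 genes, in the 8 groups, with day 3 to the left of the grey line. At day 3 the KO-Dox3 mice sit above all KO-NaCl3 mice in all panels but Gmnn, and 1 WT-Dox3 mouse, 244, sits low, while at day 7 the groups overlap.

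Among licensing factors, 4 of 5 rose in KO mice and 0 in WT mice. Cdt1, which loads the helicase, was at 5.94, 6.21, 6.25, 6.30 and 6.40 in KO-NaCl3 and at 6.91, 6.96, 7.10, 7.12 and 7.15 in KO-Dox3. Among WT mice the values were 6.29, 6.45, 6.56, 6.56 and 6.62 after saline and 6.31, 6.82, 6.88, 6.90 and 7.20 after doxorubicin. The KO groups were separate, and mouse 244 was the WT-Dox3 mouse within the saline range. Cdt1 rose by 0.83 ± 0.11 in KO mice (adjusted p = 2.64e-06), and the WT change was 0.33 ± 0.11 (adjusted p = 0.107). Orc6 and Orc1 of the origin recognition complex and the loader Cdc6 rose in KO mice by 0.82, 0.57 and 0.65, with WT changes of 0.36, 0.25 and 0.45 that did not pass.

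Gmnn encodes geminin, the inhibitor of Cdt1, and was the gene with the smallest KO change. It was at 6.03, 6.14, 6.20, 6.25 and 6.30 in KO-NaCl3 and at 5.87, 6.14, 6.24, 6.59 and 6.67 in KO-Dox3. WT mice had 6.22, 6.37, 6.41, 6.42 and 6.47 after saline and 5.74, 6.08, 6.22, 6.38 and 6.43 after doxorubicin. Both pairs of groups overlapped, and the treated mice spread further than the saline mice in each genotype. All of these values lay under the highest background value of 6.99, where a change may be understated. The change was 0.12 ± 0.12 in KO mice (95% interval -0.12 to 0.36, adjusted p = 0.692) and -0.21 ± 0.12 in WT mice (95% interval -0.45 to 0.03, adjusted p = 0.426).

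At the fork, 11 of 12 genes rose in KO mice, by 0.43 to 1.16, and 0 of 12 in WT mice, where changes lay between 0.08 and 0.38. Pcna, the sliding clamp, was at 9.84, 9.97, 10.13, 10.41 and 10.44 in KO-NaCl3 and at 10.81, 10.83, 11.05, 11.11 and 11.23 in KO-Dox3. In the WT groups the values were 10.02, 10.30, 10.66, 10.70 and 10.74 after saline and 10.18, 10.65, 10.90, 11.07 and 11.54 after doxorubicin. KO mice did not overlap between treatments, whereas mice 244 and 232 of WT-Dox3 lay within the saline range. Pcna rose by 0.85 ± 0.18 in KO mice (adjusted p = 0.00108), with a WT change of 0.38 ± 0.18 (adjusted p = 0.291). The clamp loader genes Rfc4 (1.16), Rfc5 (0.63) and Rfc3 (0.43), the primase gene Prim1 (1.03), the polymerase genes Pole (1.01), Pole2 (0.69) and Pola1 (0.60), the single-strand binding gene Rpa2 (0.62), and the flap nuclease and ligase genes Fen1 (0.51) and Lig1 (0.48) rose in KO mice. Pola2, the B subunit of polymerase alpha, did not pass (0.41 ± 0.18, adjusted p = 0.165).

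In chromatin, Hells, a remodelling helicase needed for DNA methylation, was at 7.14, 7.34, 7.59, 7.76 and 7.90 in KO-NaCl3 and at 9.11, 9.12, 9.15, 9.19 and 9.27 in KO-Dox3. WT mice gave values of 7.59, 7.65, 8.06, 8.28 and 8.30 after saline and 7.87, 8.74, 8.99, 9.12 and 9.35 after doxorubicin. The 5 KO-Dox3 mice lay close together, and the WT groups overlapped only through mouse 244. Hells rose by 1.62 ± 0.20 in KO (adjusted p = 3.93e-07) and by 0.84 ± 0.20 in WT mice (adjusted p = 0.00849). Chaf1b and Chaf1a of the CAF-1 histone chaperone (0.93 and 0.45) and Uhrf1, which guides maintenance methylation (0.93), rose in KO mice. Slbp, which binds histone mRNA, was at 0.13 in KO and 0.03 in WT mice and did not pass. It lay under the highest background value in every mouse.

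Of the S phase entry genes, Ccne1 (cyclin E1) was at 5.75, 5.93, 5.99, 6.00 and 6.21 in KO-NaCl3 and at 7.00, 7.02, 7.07, 7.14 and 7.19 in KO-Dox3. The WT values were 6.00, 6.21, 6.30, 6.31 and 6.42 after saline and 6.31, 6.86, 6.89, 6.99 and 7.24 after doxorubicin. No KO mouse overlapped between treatments, and only mouse 244 overlapped in WT mice. Ccne1 rose by 1.11 ± 0.16 in KO (adjusted p = 6.11e-06) and by 0.61 ± 0.16 in WT mice (adjusted p = 0.0185), whereas Ccne2 (cyclin E2) was at 0.18 and 0.01 and did not pass. E2f1, an activating E2F factor, was at 4.52, 4.58, 4.62, 4.64 and 4.68 in KO-NaCl3 and at 4.78, 4.80, 4.84, 4.89 and 4.92 in KO-Dox3. Among WT mice the values were 4.53, 4.62, 4.76, 4.86 and 4.89 after saline and 4.67, 4.69, 4.70, 4.73 and 4.84 after doxorubicin. The KO groups were separate but all values were in the range of background probes, and the change was 0.24 ± 0.07 in KO (adjusted p = 0.0249) and -0.01 ± 0.07 in WT mice (adjusted p = 0.986).

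Mouse 244 was the lowest of the 5 WT-Dox3 mice in 40 of the 40 genes, and mouse 144 the highest in 34. Over the 40 genes the mean log2 signal was 6.82 in mouse 244, against 7.43, 7.54, 7.57 and 7.91 in the other WT-Dox3 mice. Mouse 244 also had the lowest summed signal of crypt base stem cell markers of the group (10.43 against 13.12 to 14.85, 5 of 6 markers measured) and the highest of macrophage and neutrophil markers (12.13 against 9.33 to 10.41, 4 of 5), T cell markers (11.25 against 9.79 to 10.25, 4 of 5) and B cell markers (10.47 against 7.60 to 8.50, 4 of 4). The stem cell sum was mostly Olfm4, at 9.86 in mouse 244 against 13.03 to 14.82. Smoc2, Axin2 and Ascl2 were also lowest in mouse 244, but Lgr5 (6.39) lay within the range of the others (6.25 to 6.68). Mouse 244 was highest of the group in summed fibroblast and endothelial markers (11.5 against 9.73 to 10.65) and smooth muscle markers (17.11 against 16.27 to 16.95). It was also highest for plasma cells (12.8 against 11.67 to 12.58) and goblet cells (18.63 against 18.22 to 18.58). For enterocytes it was lowest (21.62 against 21.74 to 21.82), and for Paneth cells (19.98) it lay within the others. The part of all these markers in the low replication signal was not tested. Without mouse 244, 9 genes rose in WT mice in place of 4, adding Cdc6, Cdt1, Mcm10, Orc1 and Orc6. The share of all clusters that rose in that fit is not given here, so the gain is not read as particular to these genes.

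**Figure D3:**
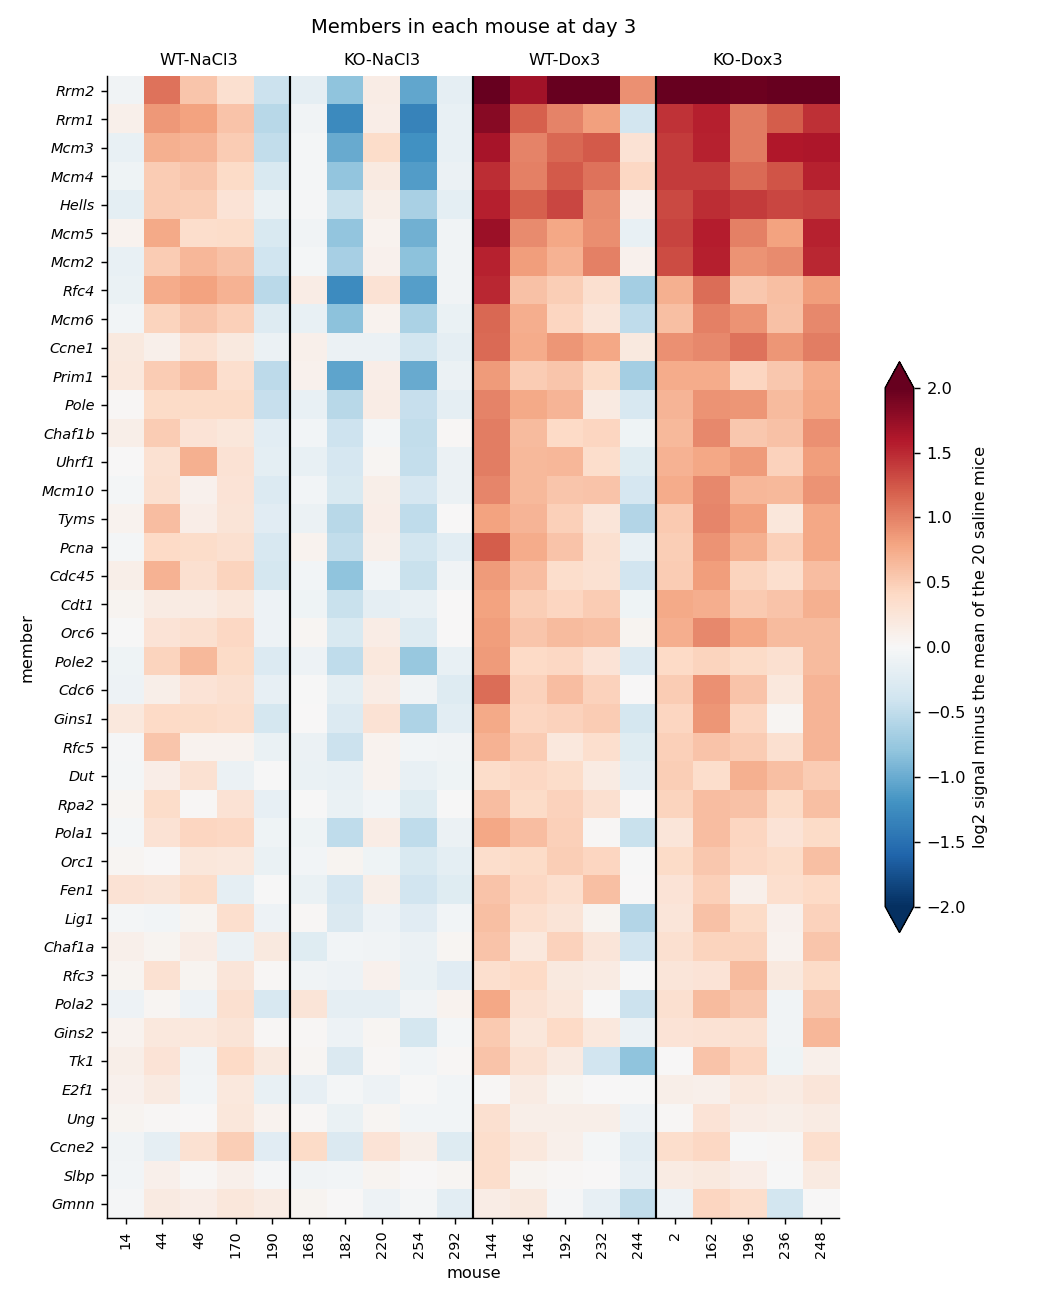
Log2 signal of the 40 genes (rows, ordered by the KO change) in each of the 20 day 3 mice (columns), as the difference from the mean of all 20 saline mice (colour, capped at 2 on either side). Mouse 244 (WT-Dox3), mouse 190 (WT-NaCl3) and mice 168, 182, 254 and 292 (KO-NaCl3) lie below that mean in most rows. Rrm2 is the darkest row in both doxorubicin groups.

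Saline groups differed too. KO-NaCl3 had the lowest mean of the 8 groups in 34 of the 40 genes, and KO-Dox3 the highest in 38. The mean over the 40 genes was 6.82 ± 0.24 (SD, n = 5) in KO-NaCl3, 7.16 ± 0.24 in WT-NaCl3, 7.04 ± 0.20 in KO-NaCl7 and 7.00 ± 0.17 in WT-NaCl7. Within KO-NaCl3, mice 182 and 254 (6.57 and 6.56) lay below mice 292, 168 and 220 (6.90, 6.97 and 7.07). In WT-NaCl3, mouse 190 stood low, with a mean of 6.81, and was the lowest of its group in 32 of the 40 genes. Mice 182 and 254 also had the lowest summed stem cell marker signals of their group (13.23 and 13.55 against 15.55 to 15.73), mostly from Olfm4. The part of these markers was not tested. Between the saline groups at day 3, 39 of the 40 genes had a lower mean in KO than in WT mice (median difference -0.30). In limma 0 passed (0.0136% of all clusters were higher in KO and 0.0121% lower). At an unadjusted p under 0.05 there were 22 of the 40 genes, with 3356 higher and 2908 lower among all 65956 clusters. The lowest adjusted p was 0.325. After doxorubicin at day 3, 39 were higher in KO mice, with a median difference of 0.22, and 0 passed (0.00758% higher and 0.00303% lower). There, 2 of the 40 genes had an unadjusted p under 0.05, with 1831 higher and 3728 lower among all clusters.

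By its estimate, the effect of doxorubicin in KO mice exceeded that in WT mice for all 40 genes, by 0.11 to 1.34 with a median of 0.49. The genes often moved together within a mouse, as in mouse 244, so these 40 differences are not independent of each other. In the test of that difference, 0 genes passed in limma (0.00% of all clusters in either direction), and the lowest adjusted p was 0.75. An unadjusted p under 0.05 was found for 26 of the 40 genes, and over all 65956 clusters for 2116 upward and 2167 downward. For Rrm2 the difference was 1.34 (unadjusted p = 0.00410) and for Rrm1 1.34 (unadjusted p = 0.00721). In 33 of the 40 genes the gap between the genotypes after saline was larger than that after doxorubicin, and both enter the difference. With the saline mice of both days as the control, an alternative chosen after the values were seen, 11 genes rose in WT mice (3.51% of all clusters), 33 in KO mice (5.79%), and 0 passed for the difference, whose median was 0.34. In that comparison Mcm2, Mcm3, Mcm10, Cdc6, Cdt1, Orc6 and Rpa2 joined Rrm2, Hells, Mcm4 and Ccne1 in WT mice.

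Other genes of the same processes, from lists of their known functions, were measured beside the 40. These lists too were chosen with earlier results of these data known, so they are not independent of the 40. In KO mice at day 3, 8 of 14 licensing and firing genes rose, among them Topbp1 (1.06), Wdhd1 (1.02) and Dbf4 (0.99), with 0 of 14 in WT mice. Of 20 other fork genes, 15 rose in KO mice, led by Prim2 (1.28), Tipin (0.96) and Pold2 (0.90), and 3 in WT mice, Rpa1 (0.43), Dna2 (0.37) and Timeless (0.21). Of 11 genes of nucleotide supply, 8 rose in KO and 4 in WT mice. The CTP synthase gene Ctps rose by 1.78 ± 0.18 in KO (adjusted p = 1.50e-08) and by 1.55 ± 0.18 in WT mice (adjusted p = 9.88e-07), and Cad, which starts pyrimidine synthesis, by 1.34 and 0.88. Nme1, a nucleoside diphosphate kinase, rose by 1.50 and 0.79, and Dctd, the dCMP deaminase, by 1.16 and 0.80. Of 9 chromatin genes, 7 rose in KO mice, led by Asf1b (1.23), Rbbp7 (1.14) and Supt16 (1.07), and 1 in WT mice, Ssrp1 (0.37). In these 4 lists 0 genes fell in either genotype.

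Of 11 other E2F, cyclin and CDK genes, 6 rose in KO mice, led by Ccna2 (1.40), Mybl2 (1.19) and Tfdp1 (1.17), and 2 in WT mice, Mybl2 (0.70) and Tfdp1 (0.59). Among 9 inhibitors of S phase entry, 3 fell in both genotypes: Cdkn1b (p27), by 0.77 in KO and 0.63 in WT mice, Rb1 (the retinoblastoma protein), by 0.65 and 0.54, and its relative Rbl2, by 0.34 and 0.33. Cdkn1a (p21), a target of p53, rose in KO mice (0.55 ± 0.18, adjusted p = 0.0390), with a WT change of 0.52 ± 0.18 (adjusted p = 0.0903). E2f6, a repressing E2F factor, rose in KO mice by 0.51 ± 0.10. Of 6 G2 and M phase genes, 4 rose in KO mice, led by Plk1 (1.71), Bub1 (1.06) and Aurkb (0.99), and 0 in WT mice. Mki67, the Ki-67 proliferation marker, was at 1.21 ± 0.40 in KO (adjusted p = 0.0525) and -0.22 ± 0.40 in WT mice (adjusted p = 0.878).

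Markers of other cells moved at day 3 as well. Of 9 enterocyte markers, Alpi and Lct fell in KO mice (by 0.62 and 1.45) and Vil1 in WT mice (by 0.60). Of 3 Paneth cell markers, Mmp7 rose in KO mice (2.00 ± 0.65, adjusted p = 0.0450, limma) and 0 passed in WT mice. Mmp7 was at 9.38 in mouse 254 of KO-NaCl3, at 13.71 to 15.32 in its other mice, and at 14.63 to 16.48 in KO-Dox3. Apart from mouse 254, the KO ranges overlapped. Of 5 crypt base stem cell markers, 3 fell in WT and 1 in KO mice, with Lgr5 falling in both, by 1.25 in WT and 0.89 in KO mice. Their summed signal, mostly Olfm4, was 14.49 to 15.97 in WT-NaCl3, 10.43 to 14.85 in WT-Dox3, 13.23 to 15.73 in KO-NaCl3 and 12.56 to 14.11 in KO-Dox3. Ascl2 lay under the highest background value in every mouse. Of 5 smooth muscle markers, 4 fell in KO mice (median -1.26) and 0 in WT mice (median -0.41), with a summed signal of 16.79 to 17.80 in KO-NaCl3, 16.08 to 16.90 in KO-Dox3, 16.63 to 17.40 in WT-NaCl3 and 16.27 to 17.11 in WT-Dox3. Of 4 measured fibroblast and endothelial markers, 4 rose in WT and 2 in KO mice, and of 4 macrophage and neutrophil markers, 3 rose in WT and 1 in KO mice. The summed signal of the latter was 8.89 to 9.46 in WT-NaCl3, 9.33 to 12.13 in WT-Dox3, 8.60 to 9.29 in KO-NaCl3 and 9.50 to 9.98 in KO-Dox3. T cell markers passed for 0 of 4 in either genotype, and their summed signal was 8.92 to 9.86 in KO-NaCl3 and 9.80 to 10.93 in WT-NaCl3. The part of these markers in the replication signal was not tested.

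**Figure D4:**
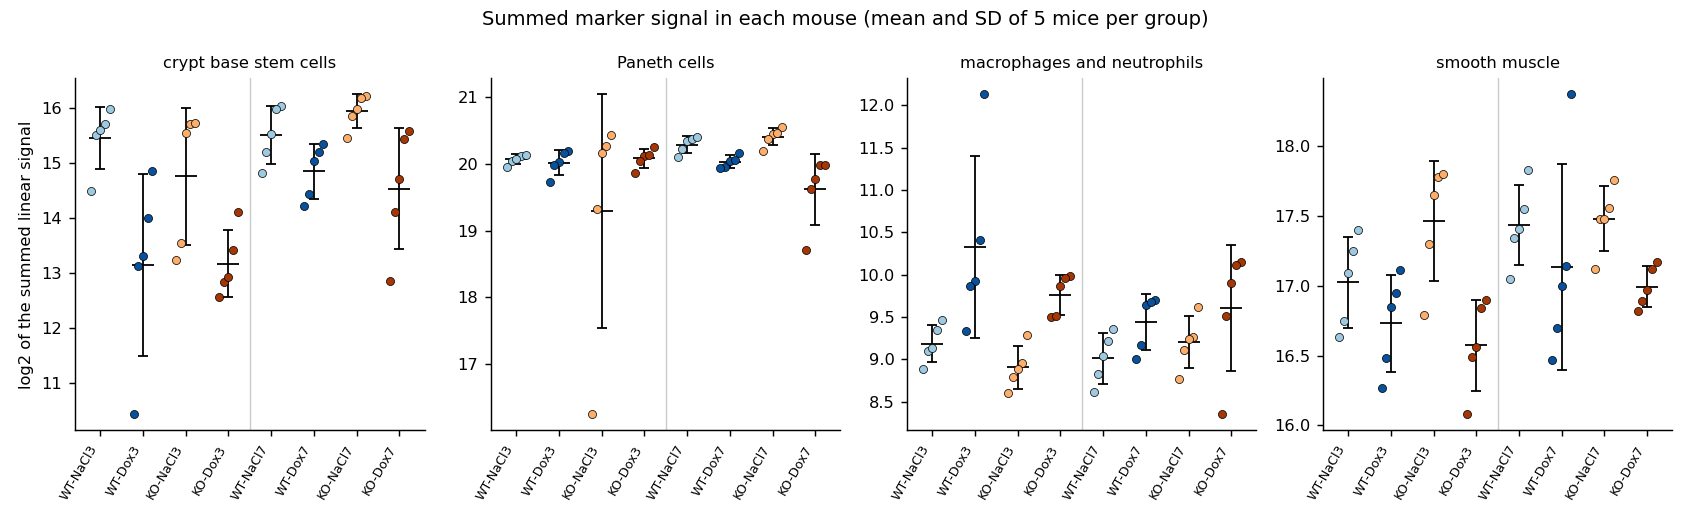
Summed linear signal of marker genes, on the log2 scale, in each mouse (points; bars are mean and SD, n = 5 per group) for crypt base stem cells, Paneth cells, macrophages and neutrophils, and smooth muscle. Mouse 244 of WT-Dox3 is the lowest point for stem cells (10.43), a sum made up mostly of Olfm4, and the highest for macrophages and neutrophils (12.13). Mouse 254 of KO-NaCl3 is the lowest for Paneth cells (16.25).

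By day 7 no gene of the 40 passed against saline in either genotype. In WT mice, 0 rose and 0 fell (0.0106% of all clusters rose and 0.00758% fell), with changes from -0.27 to 0.20. At an unadjusted p under 0.05 there were 0 of the 40 genes, with 3149 upward and 2466 downward among all 65956 clusters. In KO mice, 0 rose and 0 fell (0.318% rose and 0.602% fell), with changes from -0.59 to 0.22. An unadjusted p under 0.05 was found for 4657 clusters upward and 3316 downward, and for 1 gene of the 40. That gene was Pola2, named after its value was seen, at -0.59 ± 0.18 (adjusted p = 0.104), for which the range was 7.31 to 8.33 in KO-Dox7 and 8.32 to 8.62 in KO-NaCl7. Rrm2 was at 7.05, 7.37, 7.58, 7.85 and 8.00 in KO-Dox7 and at 7.36, 7.48, 7.67, 8.00 and 8.29 in KO-NaCl7. WT mice had 6.98, 7.62, 7.80, 7.98 and 8.16 after doxorubicin and 7.12, 7.25, 7.53, 7.75 and 8.67 after saline. All 4 day 7 groups overlapped for Rrm2. For Mcm2, Cdt1, Pcna and Ccne1 the ranges over the 10 doxorubicin mice of day 7 were 6.84 to 8.02, 6.05 to 6.57, 9.58 to 10.52 and 5.76 to 6.72. Over the 10 saline mice of day 7 they were 7.19 to 8.12, 6.25 to 6.63, 10.13 to 10.55 and 5.59 to 6.72. The ranges overlapped, and for Mcm2, Cdt1 and Pcna they reached lower after doxorubicin, in Pcna with mice 136, 102 and 42299 (9.58, 10.04 and 10.06) below every day 7 saline mouse. Mouse 102 was the lowest of WT-Dox7 in 33 of the 40 genes and mouse 136 the lowest of KO-Dox7 in 30. Between the genotypes at day 7, 0 genes passed after saline (0.0288% of all clusters were higher in KO and 0.0485% lower). After doxorubicin 0 passed as well (0.00606% higher and 0.00% lower). In both comparisons 0 of the 40 genes had an unadjusted p under 0.05. Over all clusters, 2841 were higher and 8151 lower at that p after saline, and 1306 higher and 1502 lower after doxorubicin.

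**Figure D5:**
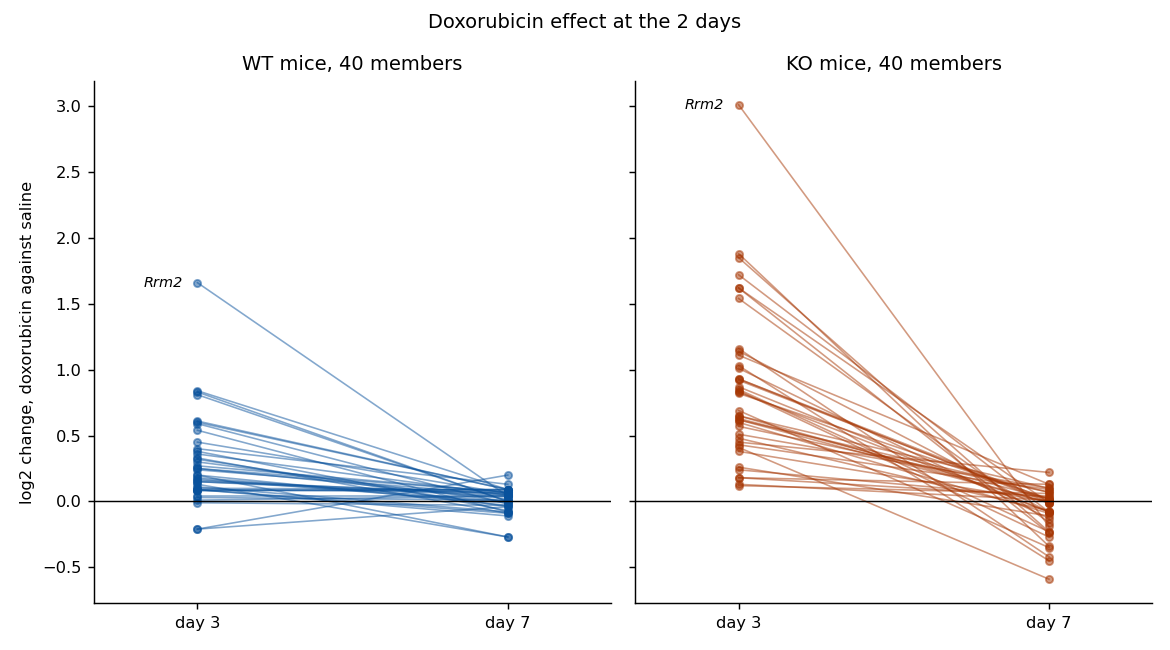
Log2 change after doxorubicin at day 3 and day 7 for the 40 genes (lines join a gene's estimates; left WT, right KO mice). In KO mice the changes run from 0.12 to 3.01 at day 3 and from -0.59 to 0.22 at day 7, and Rrm2 is the highest line at day 3 in both genotypes.

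The change in the effect between the days was tested directly. In KO mice the doxorubicin effect was lower at day 7 than at day 3 in all 40 genes by its estimate, with a median of -0.91, and 24 passed (3.37% of all clusters had a lower effect at day 7). The 5 with the lowest p were Rrm2 (-3.20 ± 0.44, adjusted p = 2.45e-05), Hells (-1.63 ± 0.28, adjusted p = 3.65e-04), Cdt1 (-0.91 ± 0.16, adjusted p = 4.89e-04), Mcm4 (-1.80 ± 0.35, adjusted p = 0.00113) and Mcm3 (-2.07 ± 0.42, adjusted p = 0.00210). By role, 7 of 9 helicase genes, 7 of 12 fork genes, 3 of 5 licensing factors, 3 of 6 deoxynucleotide genes, 3 of 5 chromatin genes and 1 of 3 S phase entry genes passed. Pola2, which passed on neither day alone, had a difference of -1.01 ± 0.25 (adjusted p = 0.0119). In WT mice, 34 of the 40 were lower at day 7, with a median of -0.20, and 0 passed in limma (0.397% of all clusters). The nearest was Rrm2, at -1.62 ± 0.44 (adjusted p = 0.0662). An unadjusted p under 0.05 was found for 5 of the 40 genes, and over all clusters for 3158 upward and 3375 downward.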

How the data were processed

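Jejunal RNA of 40 mice was hybridised to Affymetrix Mouse Transcriptome Array 1.0, 1 array per mouse. The authors deposited log2 signals per transcript cluster and an annotation of each cluster with gene symbols. Per the labels the values came from RMA in Affymetrix Expression Console, while the methods describe limma's normexp correction followed by quantile normalization, and which of these made the deposited values is not settled. The deposited fold changes, p-values and other columns of the authors' comparisons were not used, and their group averages served only to check the scale.

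Control probe sets (6732) were left out and no filter on dim clusters was applied. A linear model of the 8 group means was fitted to 65956 clusters over all 40 arrays (limma 3.58.1, R 4.3.3, moderated by eBayes), with Benjamini-Hochberg adjustment over all clusters and a threshold of 0.05. The model was tested on simulated data with known changes. Cluster positions are on GRCm38, and 40 of the 40 measured genes overlap the RefSeq gene of their name. Marker signals are sums of linear values. Summaries and figures used python 3.11.15, pandas 2.3.3 and matplotlib 3.10.9.

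Arrays were grouped by genotype, treatment and day from the labels, which name each mouse, so the replicates are animals. Array medians lay between 4.38 and 4.66, and with 5 arrays per group their number limits the precision. Scan dates and slides were not used here.

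The gene members and lists were chosen with earlier results of these data known. Values per mouse are given for the 3 largest rises among genes past the threshold in each doxorubicin effect, for the 5 lowest p-values among genes past it in a difference between effects, and for Mcm2, Cdt1, Gmnn, Pcna, Rrm2, E2f1 and Ccne1. From each list of other genes up to 3 with the largest change past the threshold are named, with Cdkn1a and Mki67 always. Results were recomputed with the spread estimated from the compared groups alone, both moderated and as an unmoderated analysis of variance. They were also recomputed with dim clusters removed, with clusters of 1 symbol, with another variance model or with array weights. Further settings were renewed quantile normalization, median centring, and each mouse left out in turn. One more, saline mice of both days as the control, was chosen after seeing the data.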

Additional observations from a re-analysis of the deposited data

Results flagged for a closer look

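Among 96 groups of 5 mice examined for single mice far from the others, 3 were marked (3.12%), and chance alone marks about 1 in 20. All 3 lie at day 7. Cdt1 was lowest in mouse 136 of KO-Dox7, at 6.05 with the nearest mouse at 6.40, and in mouse 272 of KO-NaCl7, at 6.32 with the nearest at 6.45. Ccne1 was highest in mouse 104 of WT-NaCl7, at 6.72 with the nearest at 6.01. Outside the 40 genes, the cluster that Mcm7 shares with Mir93 and Mir25 rose by 1.30 ± 0.20 after doxorubicin in KO mice at day 3 (limma, adjusted p = 1.54e-05), with a WT change of 0.55 (adjusted p = 0.124). Signal of the helicase gene and of the microRNA precursors cannot be told apart on it.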

How the results depend on the processing

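Of the settings that keep all mice, those that moved the WT count at day 3 were the fit of only the compared groups (1 gene, Rrm2), the methods' analysis of variance (0), median centring (2, Hells and Rrm2) and the saline mice of both days (11). Pola2 passed at day 7 in KO mice with array weights (1 gene), and averaged over the genotypes (1 gene in place of 0) with only the compared groups, array weights, renewed quantile normalization, clusters brighter than the median or those with 1 symbol. Rrm2 passed for the day difference in WT mice (1 gene in place of 0) with clusters above the median brightness or with 1 symbol. The cause of these moves was not tested. The KO count at day 3 lay between 28 and 34 over these settings. With each mouse left out in turn, counts ranged from 2 to 9 in WT mice at day 3, from 28 to 34 in KO mice at day 3, from 25 to 34 averaged over the genotypes at day 3, from 0 to 1 averaged at day 7, from 0 to 2 for the day difference in WT and from 19 to 27 in KO mice, and stayed at 0 for the doxorubicin effect at day 7 in each genotype and for both differences between the genotypes in that effect. In WT mice at day 3 the count was 2 (Hells and Rrm2) without mouse 144, without mouse 192 or without saline mouse 190, and 9 without mouse 244. Shares of all clusters in the fits with a mouse left out are not given here. In KO mice the lowest counts, 28 at day 3 and 19 for the day difference, were those without mouse 254 of KO-NaCl3. Averaged at day 7, Pola2 passed without mouse 42300 or without mouse 102. For the day difference in WT mice, Hells and Rrm2 passed without mouse 244, and 1 gene without saline mouse 44. E2f1 in WT mice (-0.01) changed sign, to 0.00 without mouse 144, 232 or 14, 0.01 without mouse 244, 0.03 without mouse 44 or 170 (lowest -0.06, without mouse 190), and 0.02 with the saline mice of both days. The share of calls upward over all clusters was 55.0% in WT mice at day 3 and 41.7% after renewed quantile normalization, and in KO mice at day 7 it was 34.6% and 15.5% after median centring, as was the day difference in KO mice (31.5% and 14.5%). No paired analysis was possible because the mouse numbers are not shared between groups. A mean over several clusters of a gene was not run, since each of the 40 genes has 1 cluster. Signal near background limits 18 of the 40 genes.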
